A study of Mus musculus with 6 samples.

Results

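Haematopoietic transcription factors are the DNA-binding proteins and cofactors that set blood cell fates. The set described here has 10 genes, Ikzf1, Spi1, Myb, Lmo2, Gata1, Gata2, Runx1, Cebpe, Gfi1 and Tal1, and its members were all probe sets whose platform annotation gives exactly 1 of these symbols. The rule found 18 of the 34945 probe sets with 1 symbol, and they belong to 9 genes. No probe set is named for Cebpe in the annotation used, so this factor of late granulocytes was not analysed here. Ikzf1, Gata2, Myb and Runx1 had several probe sets and the other 5 genes had 1 each.

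The 2 groups were sorted from digested bone marrow of the same 3 Grem1;TdTomato mice on a C57BL/6J background, which were 6 to 8 weeks old, labelled male and given tamoxifen by mouth. The Grem1+ fraction is described only as sorted for Grem1, the gene of the BMP antagonist Gremlin 1, and the labels name no gate against blood cells for it. The Grem1- fraction is described as non-recombined and negative for CD45, CD31 and Ter-119. Every sorted fraction went onto an Affymetrix array of its own, so each group has 3 arrays, and all values are log2 expression per probe set as deposited. The labels do not name the recombinase behind the reporter. Both groups came from the same mice and so share genotype and treatment, while the Grem1- cells are described as non-recombined.

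Blood fates are set by a small number of such factors working in shared complexes. TAL1, a basic helix-loop-helix protein, and the bridging protein LMO2 join GATA1 or GATA2 at the regulatory elements of stem, erythroid and megakaryocyte genes. RUNX1 is needed for the first blood stem cells, MYB keeps progenitors dividing, and PU.1, the product of Spi1, drives myeloid and early B cell genes. GFI1 and C/EBP-epsilon act in granulocytes, and IKAROS, the product of Ikzf1, is best known in lymphoid cells and also acts in other blood lineages. LMO2, TAL1 and GATA2 are also known in endothelium, and RUNX1 in skeletal cells, so none of these genes marks a blood lineage by itself.

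The labelled fractions were checked first. Ptprc, the gene of CD45, read 7.29, 9.61 and 10.56 in Grem1+ and 12.13, 11.78 and 12.37 in Grem1- (mice 1, 2 and 3), so its transcript was present in the fraction gated against CD45. That difference missed the threshold in limma (adjusted p = 0.0603), while a second Ptprc probe set was dim on all Grem1+ arrays (2.53 to 3.71, against 8.37 to 9.38 in Grem1-) and at least 28.9-fold lower (adjusted p = 0.0106). Grem1 itself read 4.49, 4.14 and 8.61 in Grem1+ and 3.69, 3.75 and 3.70 in Grem1-, and its difference, 2.04 (SE 1.02), missed the threshold in limma (adjusted p = 0.245). Xist, which is not transcribed in male cells, read 10.60 in Grem1+ and 11.04 in Grem1- of mouse 3 on 1 probe set and at most 2.99 on the other arrays, against the label of that mouse. Values without mouse 3 are therefore given below. Array medians ran from 3.74 to 3.81. Between the probe sets at the 3' and 5' ends of Gapdh, a check of RNA integrity in which a larger gap means shorter RNA, the gap measured 3.58 ± 0.51 in Grem1+ and 2.66 ± 0.34 in Grem1- (SD, n = 3). For actin it was 0.09 ± 0.11 in Grem1+ and 0.16 ± 0.02 in Grem1- (SD, n = 3). The part of either in the results was not tested. The 3 arrays of a group come from separate mice, and p-values cover the spread of these mice alone.

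Most members were low in Grem1+. Of the 18 probe sets, 8 fell and 0 rose past a Benjamini-Hochberg adjusted p of 0.05 (limma, mouse as a block), where 7.76% of all 18157 probe sets tested fell and 10.1% rose. An unadjusted p under 0.05 was found for 12 of the 18 and for 6360 of all 18157. With a mouse left out and the block kept, limma called no probe set of the array, while 4967 to 5158 had an unadjusted p under 0.05. Counted without the block, 9 fell and 2 rose, the 2 being Runx1 probe sets, where 1876 of all 18157 fell and 2329 rose. Without mouse 3 and without the block 5 fell and 0 rose, where 796 of all 18157 fell and 1122 rose. The 8 belong to Ikzf1, Spi1, Myb, Lmo2, Gata1 and Gfi1. All 8 were lower in each of the 3 mice, but this nearly follows from a call on the same arrays and is no further support. For Gata1, Gfi1 and the dimmest Myb probe set the filter given below fixed it. Their Grem1+ arrays all lay below log2 4 and their Grem1- arrays all above. The other 10 comprised all probe sets of Gata2, Runx1 and Tal1 and the second of Ikzf1. The median difference of the 18 was -1.73, beside -0.01 over all probe sets tested. All 18 passed the filter on dim probe sets (above log2 4 on at least 3 arrays). However, 5 of them passed through the Grem1- arrays alone, and these had to differ, so the count and the median describe the set and are no support for it. In sorted bulk samples fewer cells of a type and less RNA per cell cannot be told apart.

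**Figure D1:**
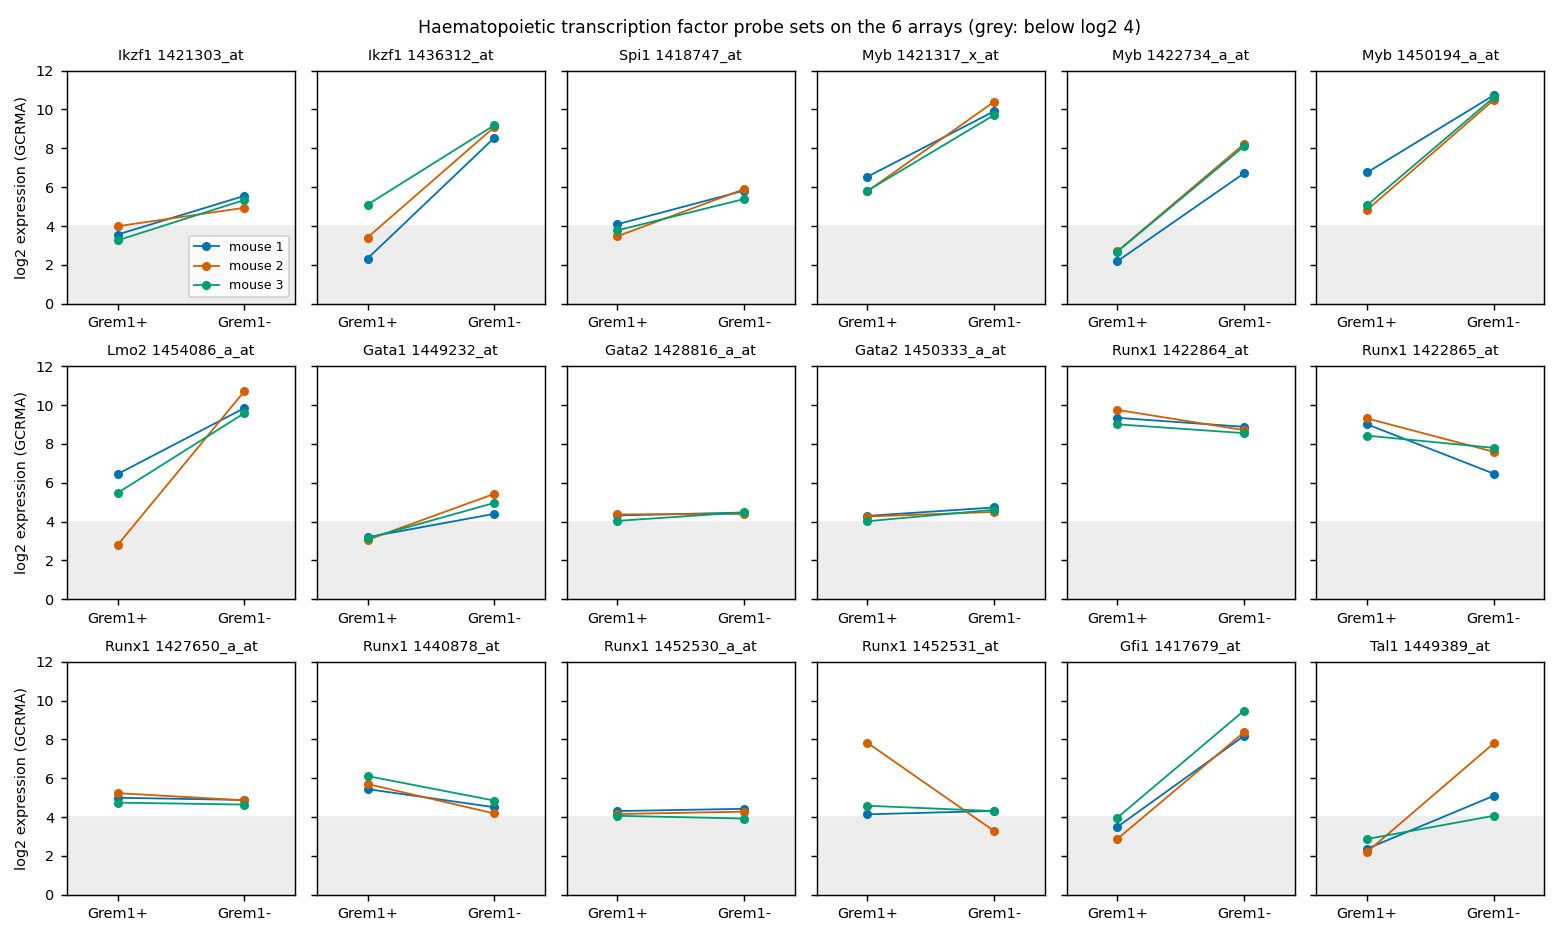
Log2 expression of each of the 18 probe sets (panels) in Grem1+ and Grem1- (x axis), with a line joining the 2 fractions of each mouse and grey shading below log2 4. The lines of Myb, Gfi1, Lmo2 and 1 Ikzf1 probe set are steep and low in Grem1+, those of Gata2 are nearly flat, and the 2 brightest Runx1 panels are higher in Grem1+ in all 3 mice.

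The 300 bases around start sites of members were read from RefSeq (GRCm38.p6) to place the factors' own recognition letters near their genes. Each window holds 250 bases before and 50 after a start site, and 12 windows of 7 members were matched by symbol, with none for Spi1 and Lmo2. Both strands were searched for AGATAA or AGATAG or TGATAA or TGATAG (the GATA motif), for CAGCTG or CAGATG (E-boxes, read by TAL1 with its partners), for TGTGGT or TGCGGT (the RUNX motif) and for GAGGAA (a PU.1 motif), none of which contains another. Of all 32851 windows of this length searched, 29.8% held the GATA motif, 30.6% an E-box, 22.4% the RUNX motif and 28.3% the PU.1 motif. Of the 12 windows of members, 1 held the GATA motif, 3 an E-box, 1 the RUNX motif and 3 the PU.1 motif. A match is a description of letters and not a binding site. Shown 5′ to 3′ are both Runx1 windows, since Runx1 had the only positive differences, the Gata1 window and the Tal1 window with 3 kinds of match, and that of Myb, which fell on all its probe sets. Capitals mark the matches, and positions are counted from 1 at the start site, with negative numbers before it.
Runx1 first start site, chr16:92826025-92826324, minus strand: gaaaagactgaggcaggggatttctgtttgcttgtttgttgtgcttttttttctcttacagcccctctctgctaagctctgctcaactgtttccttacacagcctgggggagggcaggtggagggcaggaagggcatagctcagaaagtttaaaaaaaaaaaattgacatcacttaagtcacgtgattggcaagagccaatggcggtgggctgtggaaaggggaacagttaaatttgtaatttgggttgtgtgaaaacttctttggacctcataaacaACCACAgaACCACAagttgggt
Runx1 second start site, chr16:92697280-92697579, minus strand: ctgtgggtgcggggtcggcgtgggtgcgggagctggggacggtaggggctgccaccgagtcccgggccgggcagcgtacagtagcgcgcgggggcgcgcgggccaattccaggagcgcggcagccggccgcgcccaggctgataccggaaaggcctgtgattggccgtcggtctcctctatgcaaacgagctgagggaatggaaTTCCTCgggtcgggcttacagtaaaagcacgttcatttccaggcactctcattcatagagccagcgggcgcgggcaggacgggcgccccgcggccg
Tal1 first start site, chr4:115056176-115056475, plus strand: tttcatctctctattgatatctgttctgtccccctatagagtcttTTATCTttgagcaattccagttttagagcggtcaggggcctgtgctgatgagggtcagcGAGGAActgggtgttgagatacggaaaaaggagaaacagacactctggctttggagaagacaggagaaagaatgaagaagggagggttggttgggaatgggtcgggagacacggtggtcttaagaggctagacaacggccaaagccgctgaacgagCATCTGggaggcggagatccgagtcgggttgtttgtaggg
Gata1, chrX:7967861-7968160, minus strand: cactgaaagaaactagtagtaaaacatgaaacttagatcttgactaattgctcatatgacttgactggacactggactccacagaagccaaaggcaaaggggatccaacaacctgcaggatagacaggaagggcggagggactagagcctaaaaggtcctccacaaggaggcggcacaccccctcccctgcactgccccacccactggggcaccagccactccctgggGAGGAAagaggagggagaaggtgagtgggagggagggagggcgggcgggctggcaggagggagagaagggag
Myb, chr10:21160935-21161234, minus strand: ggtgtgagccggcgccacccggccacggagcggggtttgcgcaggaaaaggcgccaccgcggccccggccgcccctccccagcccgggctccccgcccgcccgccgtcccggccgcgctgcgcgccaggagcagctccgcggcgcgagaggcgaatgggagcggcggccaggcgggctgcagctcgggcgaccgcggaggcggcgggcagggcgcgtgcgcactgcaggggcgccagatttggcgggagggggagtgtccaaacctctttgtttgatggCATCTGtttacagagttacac

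Of Tal1, Lmo2, Gata1 and Gata2, which work in shared complexes, Lmo2 and Gata1 fell and Tal1 and Gata2 did not pass, and differences between these genes were not tested. Lmo2 read 6.45, 2.79 and 5.47 in Grem1+ against 9.84, 10.70 and 9.58 in Grem1- (mice 1, 2 and 3). Its Grem1+ arrays were the most scattered of the called probe sets (4.90 ± 1.89, SD, n = 3, against 10.04 ± 0.59 in Grem1-), but the highest of them lay 3.13 below the lowest Grem1- array. The difference of -5.14 (SE 0.997) passed in limma (adjusted p = 0.0382). Mouse 2 carried the largest difference, -7.91, beside -3.40 and -4.10 in mice 1 and 3, and the value was -3.75 without mouse 2 and -5.65 without mouse 3. The call was lost without the filter on dim probe sets (adjusted p = 0.106) and without mouse 3 and the block (adjusted p = 0.0671).

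Gata1, the erythroid and megakaryocyte GATA factor, was low in both fractions. It read 3.20, 3.05 and 3.13 in Grem1+ and 4.40, 5.42 and 4.96 in Grem1-. All Grem1+ arrays lay below log2 4, the limit treated as dim, so only a bound is given, at least 1.90-fold lower in Grem1+ (limma adjusted p = 0.0404 for the difference as deposited, -1.80, SE 0.36). Setting dim values to log2 4 gave a difference of -0.93 and ended the call (adjusted p = 0.137), as did testing without the filter (adjusted p = 0.0690). Without the block it was also lost when mouse 2 (adjusted p = 0.0801) or mouse 3 (adjusted p = 0.107) was left out, and without mouse 3 the difference was -1.79. In the Gata1 window the PU.1 motif begins at base -22.

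Tal1 did not pass. Every Grem1+ array lay below every Grem1- array, as on 20.4% of all probe sets tested. For Tal1 this was fixed by the filter, which it passed through the Grem1- arrays alone. It read 2.37, 2.20 and 2.87 in Grem1+ and 5.10, 7.79 and 4.07 in Grem1-, so its level within Grem1- varied more (SD 1.92) than that of any other member. The difference was -3.17 (SE 0.92, 95% interval -5.66 to -0.68, limma adjusted p = 0.0878), and adjusted p-values over all alternatives ran from 0.0515 to 0.239. Mouse 2 alone had a Tal1 level above 6, and the difference was -1.96 without mouse 2 and -4.16 without mouse 3. With dim values set to log2 4 it was -1.65. Its first window held the GATA motif from base -205, the PU.1 motif from base -146 and an E-box from base 11.

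Gata2, the GATA factor of stem cells and mast cells, stayed near the dim limit in both fractions. Probe set 1450333_a_at read 4.29, 4.26 and 4.02 in Grem1+ and 4.73, 4.50 and 4.61 in Grem1-. Probe set 1428816_a_at read 4.31, 4.37 and 4.03 in Grem1+ and 4.46, 4.39 and 4.48 in Grem1-. Neither passed, with differences of -0.42 (95% interval -1.19 to 0.35) and -0.21 (95% interval -0.98 to 0.57). The groups did not overlap on either probe set, yet the gaps were 0.20 and 0.03, and 20.4% of all probe sets tested had every Grem1+ array below every Grem1- array.

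No Runx1 probe set passed in either direction, and 5 of its 6 had a positive difference. Its brightest, 1422864_at, read 9.34, 9.75 and 9.01 in Grem1+ and 8.88, 8.71 and 8.55 in Grem1-. Probe set 1422865_at read 9.01, 9.31 and 8.42 in Grem1+ and 6.47, 7.59 and 7.79 in Grem1-. On 1440878_at the arrays read 5.44, 5.70 and 6.11 in Grem1+ and 4.51, 4.19 and 4.85 in Grem1-. On these probe sets every Grem1+ array was above every Grem1- array, which 21.6% of all probe sets tested also showed, and none of the 3 passed with the block. Their differences were 0.65 (SE 0.30, adjusted p = 0.216), 1.63 (SE 0.47, adjusted p = 0.0851) and 1.24 (SE 0.30, adjusted p = 0.0597) in limma. Without the block 1422865_at and 1440878_at passed (adjusted p = 0.0457 and 0.0379). Without mouse 3 the 3 differences were 0.75, 2.13 and 1.22.

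The other 3 Runx1 probe sets gave no common direction. Probe set 1452531_at was set by 1 array, with 4.14, 7.83 and 4.58 in Grem1+ against 4.32, 3.29 and 4.31 in Grem1-, and its difference of 1.55 became 0.05 without mouse 2. Probe set 1427650_a_at differed by 0.20 (95% interval -0.56 to 0.96) and 1452530_a_at by -0.03 (95% interval -0.79 to 0.73). The mean of all 6 probe sets differed by 0.87 (limma adjusted p = 0.121). Probe sets can read different transcripts of a gene, and which Runx1 transcript each one reads is not given in the sources used here. The window of the first Runx1 start site held the RUNX motif 2 times, from bases 29 and 37, and that of the second held the PU.1 motif from base -46 and no RUNX motif. Chondrocyte genes were higher on the Grem1+ arrays, their median over 11 genes being 11.05, 11.06 and 11.00 in Grem1+ and 6.44, 6.90 and 7.14 in Grem1-, and their part in the Runx1 values was not tested.

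Myb, the progenitor factor, fell on all 3 of its probe sets. Probe set 1450194_a_at read 6.76, 4.83 and 5.07 in Grem1+ and 10.73, 10.49 and 10.62 in Grem1-. Probe set 1422734_a_at was dim on all Grem1+ arrays, at 2.18, 2.69 and 2.68, against 6.71, 8.21 and 8.10 in Grem1-. Probe set 1421317_x_at, whose identifier marks probes that may bind other transcripts, read 6.53, 5.79 and 5.81 in Grem1+ and 9.90, 10.39 and 9.71 in Grem1-. The groups did not overlap on any of the 3, as on 20.4% of all probe sets tested that were lower in Grem1+, with gaps of 3.73, 4.02 and 3.18. For 1422734_a_at the filter fixed this, and its gap runs to a dim value, so it is no support. The first differed by -5.06 (SE 0.46, limma adjusted p = 0.0112) and the third by -3.96 (SE 0.37, limma adjusted p = 0.0115). The second was at least 12.75-fold lower (limma adjusted p = 0.00992). Without mouse 3 they differed by -4.82, -5.02 and -3.99. All 3 calls held under every alternative that kept the 3 mice, and also without the block when any mouse was left out. The residual signal differed between probe sets, since 2 of them stayed above log2 4 on all Grem1+ arrays. The Myb window held an E-box from base 30.

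Among the myeloid factors, Gfi1 fell sharply and Spi1 by less. Gfi1, a repressor needed to make neutrophils, read 3.49, 2.87 and 3.96 in Grem1+ and 8.17, 8.36 and 9.47 in Grem1-. It was dim on all Grem1+ arrays and at least 25.4-fold lower there (limma adjusted p = 0.00992, difference as deposited -5.23, SE 0.33). The value without mouse 3 was -5.09. Spi1 read 4.09, 3.47 and 3.78 in Grem1+ and 5.82, 5.90 and 5.39 in Grem1-. Its 3 mice differed by -1.73, -2.43 and -1.61, and the difference of -1.92 (SE 0.32) passed in limma (adjusted p = 0.0293). With dim values set to log2 4 Spi1 differed by -1.67, and without mouse 3 by -2.08. The call of Spi1 was lost without the block when any mouse was left out (adjusted p from 0.0508 to 0.0652).

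Ikzf1 fell on its brighter probe set. Probe set 1436312_at read 2.32, 3.41 and 5.10 in Grem1+ and 8.53, 9.09 and 9.19 in Grem1-, a difference of -5.33 (SE 0.51, limma adjusted p = 0.0121). The Grem1+ array of mouse 3 was the only one above log2 4, and the difference was -5.94 without that mouse. With dim values set to log2 4 it was -4.57. The call was lost without the block when mouse 2 was left out (adjusted p = 0.0600). The second probe set, 1421303_at, read 3.56, 3.99 and 3.26 in Grem1+ and 5.55, 4.94 and 5.34 in Grem1-. It differed by -1.67 (SE 0.37, limma adjusted p = 0.0503) and passed under 5 alternatives, among them without the block (adjusted p = 0.0143), while with dim values set to log2 4 it differed by -1.28. The mean of both probe sets differed by -3.50 (adjusted p = 0.00568).

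**Figure D2:**
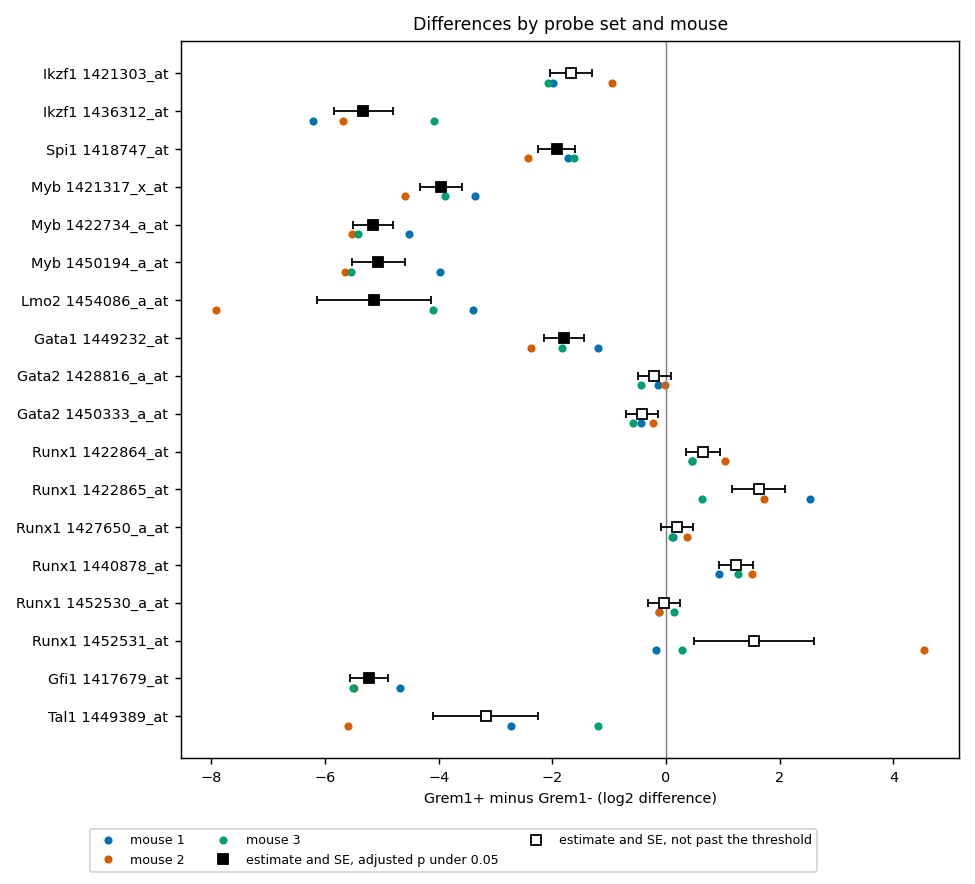
Difference between Grem1+ and Grem1- (log2, x axis) for each probe set (rows), with the limma estimate and its SE as squares, filled where the adjusted p was under 0.05, and the 3 mice as dots. The 8 filled squares lie between -5.33 and -1.80, all 6 Runx1 squares and both of Gata2 are open, and mouse 2 stands apart for Lmo2, Tal1 and Runx1 1452531_at.

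The ranks of the members among all probe sets tested covered a wide range, also within a gene. Differences as low as that of Ikzf1 1436312_at were shared by 0.308% of probe sets, as low as that of Gfi1 by 0.341%, as low as that of Myb 1422734_a_at by 0.380% and as low as that of Lmo2 by 0.419%. For Myb 1450194_a_at this share was 0.496% and for Myb 1421317_x_at 1.5%. It was 11.5% for Ikzf1 1421303_at, 9.28% for Spi1, 10.2% for Gata1 and 2.94% for Tal1. Gata2 stood in the middle of the range, at 34.2% and 41.5%, and Runx1 between 48.8% and 86.7%. These shares are ranks of differences as deposited and carry no test. All Grem1+ arrays of Gfi1, Myb 1422734_a_at, Ikzf1 1421303_at, Gata1 and Tal1 were dim, so their ranks rest in part on values below the limit. With dim values set to log2 4 these probe sets differed by -4.67, -3.67, -1.28, -0.93 and -1.65 in turn.

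**Figure D3:**
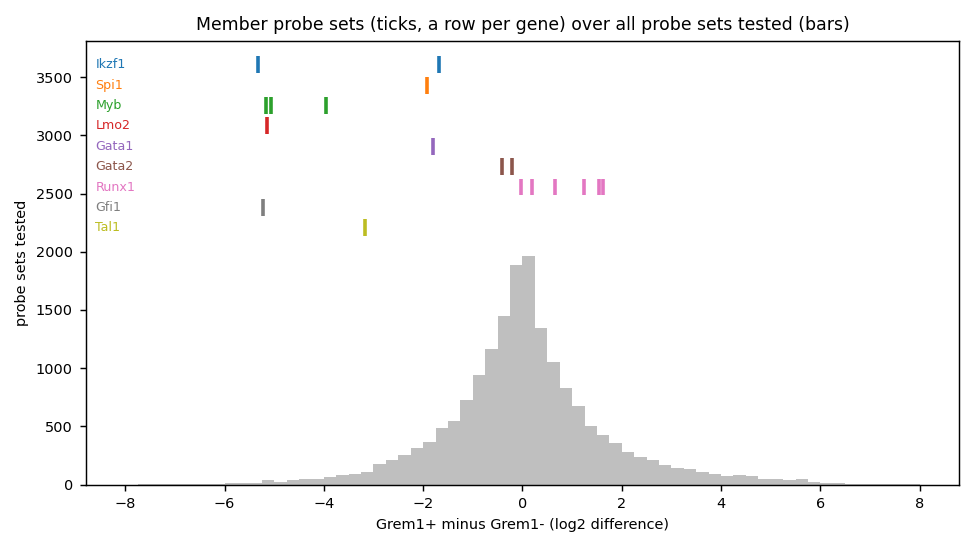
Histogram of the log2 difference (x axis) over all 18157 probe sets tested (y axis, number of probe sets), with a row of ticks for the probe sets of each member gene. Ticks of Lmo2, Gfi1, Ikzf1 1436312_at and 2 of Myb lie near -5, in the thin left tail, Myb 1421317_x_at lies at -3.96 and Ikzf1 1421303_at at -1.67, and those of Runx1 and Gata2 lie in the central peak and on its right flank.

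The genes closest to each member across the 6 arrays were found by the distance between profiles centred on their own mean, using the brightest probe set of each member. With 2 groups this likeness mostly restates the group difference, and it says nothing of shared control. Gfi1 was closest to Naip2 and to Fcnb, a ficolin of granulocytes (r = 0.995 and 0.993 over 6 arrays). Ikzf1 was closest to Sp100 and to Ermap, an erythroid membrane protein (r = 0.996 and 0.995), and Lmo2 to Celf2 and to Cybb, a subunit of the phagocyte oxidase (r = 0.975 for both). Myb was closest to Mkrn1 and Celf2, Spi1 to Timeless and Traf3ip3, and Gata1 to Rasal3 and Slc16a10. Tal1 was closest to Hsd17b11 and to Tek, the angiopoietin receptor of endothelium (r = 0.998 and 0.989). Tek read 2.79, 2.46 and 2.40 in Grem1+ and 4.86, 7.14 and 4.07 in Grem1-, with the same high array of mouse 2 as Tal1. The other endothelial genes tested were divided on that array. In Grem1- Esam was highest in mouse 2 (4.70, 6.15 and 4.71), while Pecam1 (5.25, 4.23 and 4.91) and Egfl7 (5.33, 4.85 and 5.65) were lowest there. Gata2 was closest to Mark2 and Apoc2, and Runx1 to S1pr2 and Nfia, and all 4 differed by less than 1.

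Of 11 listed partners of the TAL1 and RUNX1 complexes 10 could be tested, and 0 rose and 0 fell in limma on their brightest probe set, where 11.1% and 7.81% of all genes did so, with a median difference of -0.29 beside 0.04 over all 10151 genes. 3 of the 10 had an unadjusted p under 0.05, as did 3616 of all 10151 genes. These 3 had negative differences: Fli1, Lyl1, a relative of TAL1 (-1.11, adjusted p = 0.0666), and Cbfa2t3, a corepressor (-1.18, adjusted p = 0.113). Cbfb, the partner of RUNX proteins, read 10.74, 11.09 and 10.94 in Grem1+ and 10.70, 10.62 and 10.47 in Grem1-, a difference of 0.33 (SE 0.29). Tcf12, an E-protein that pairs with TAL1, differed by 0.49 (SE 0.43). Fli1, an ETS factor of blood and endothelium, differed by -2.25 (SE 0.50, limma adjusted p = 0.0501), and its dimmer probe set passed at -2.73 (adjusted p = 0.0173). The mean of its probe sets also passed, at -2.49 (adjusted p = 0.00872). Lyl1, Cbfa2t3 and both Fli1 probe sets are named outside the naming rule, after their values were seen.

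Of 24 listed paralogues of the members 14 could be tested, and 1 rose and 2 fell, where 11.1% and 7.81% of all genes did so, and the median difference was -0.28. Ikzf4, the gene of EOS, rose on its only probe set that passed the filter. Probe set 1457342_at of Ikzf4 read 9.54, 9.67 and 9.08 in Grem1+ and 2.76, 2.57 and 4.87 in Grem1-, a difference of 6.03 (SE 0.68, limma adjusted p = 0.0152). No alternative that kept all mice ended that call, but its other 2 probe sets were below log2 4 on all 6 arrays. Spib, a close relative of Spi1, fell by 1.72 (SE 0.29, limma adjusted p = 0.0286). Ikzf2, the gene of HELIOS, fell by 1.40 (SE 0.30, limma adjusted p = 0.0484), and lost its call without the block (adjusted p = 0.144). Ikzf3, the gene of AIOLOS, differed by -3.21 (SE 0.88, limma adjusted p = 0.0780). Runx3 read 10.66, 11.16 and 10.15 in Grem1+ and 10.28, 9.13 and 9.67 in Grem1- and did not pass (adjusted p = 0.219). With a mouse left out and no block, Spib and Ikzf2 lost their calls whichever mouse it was (adjusted p from 0.0510 to 0.419), while Ikzf4 did not. Ikzf3 and Runx3 are named outside the naming rule, after their values were seen.

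Of 14 other blood transcription factors 12 could be tested, and 4 fell, 1 rose and 7 did not pass, with a median difference of -0.78, where 7.81% of all genes fell and 11.1% rose. Nfe2, a factor of megakaryocytes and erythroid cells, read 3.28, 4.36 and 4.58 in Grem1+ and 8.48, 9.00 and 9.05 in Grem1-, and fell by 4.77 (SE 0.31, limma adjusted p = 0.00992). Hhex, a homeobox factor of progenitors, fell by 4.17 (SE 0.70, limma adjusted p = 0.0291) and lost its call without the filter (adjusted p = 0.0790). Bcl11a, a zinc finger factor of B cells and of globin switching, was dim on all Grem1+ arrays and at least 5.59-fold lower (limma adjusted p = 0.0181). Its dimmer probe sets 1453814_at and 1456632_at passed too (limma adjusted p = 0.0358 and 0.0334), while 1426552_a_at differed by -0.89 and did not (adjusted p = 0.151). Ebf1, the B cell factor, fell by 2.15 on its brightest probe set (SE 0.42, limma adjusted p = 0.0396) and lost this call without the block (adjusted p = 0.107). Its dimmer probe set 1448293_at passed too, at -4.33 (SE 0.63, limma adjusted p = 0.0225). Probe sets 1416301_a_at and 1416302_at of Ebf1 differed by -2.93 and -1.91 and did not pass (limma adjusted p = 0.0879 and 0.0846). The factor that rose was Mef2c, by 1.56 (SE 0.28, limma adjusted p = 0.0321), which also acts in hypertrophic cartilage, and it is named outside the rule. With the mean of its probe sets Mef2c differed by 0.86 and did not pass (adjusted p = 0.0962). With a mouse left out and no block, Nfe2 passed each time, Hhex failed without mouse 1 or mouse 2, Bcl11a without mouse 1 or mouse 3, and Ebf1 and Mef2c without any of them (adjusted p of these failures from 0.0563 to 0.321).

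Beside the 7.81% of all genes that fell, the lists of blood lineage genes had these counts. Of 12 neutrophil granule genes, a group that GFI1 and C/EBP-epsilon regulate, 10 fell and 0 rose, and Mmp8, a collagenase of granules, fell by 5.73 (SE 0.52, limma adjusted p = 0.0112). Of 12 myeloid surface and oxidase genes, many of them PU.1 targets, 10 could be tested and 9 fell, among them Ncf1 by 6.28 (SE 0.47, limma adjusted p = 0.00992). Of 15 erythroid genes, many of them GATA1 targets, 8 could be tested and 5 fell, and Hemgn was at least 76.3-fold lower (limma adjusted p = 0.00989). Of 10 B cell precursor genes 6 could be tested and 3 fell, Vpreb1, Dntt and Cd79b, all dim on every Grem1+ array and at least 65.7-fold, 13.2-fold and 3.49-fold lower (limma adjusted p at most 0.0181). Median differences of the tested genes were -3.69, -3.57, -5.03 and -3.04 for these lists in turn, beside 0.04 over all genes. The lists count only genes that passed the filter and were chosen with results of these arrays known. Several erythroid and B cell precursor genes passed through the Grem1- arrays alone, and these had to differ.

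The medians of the neutrophil granule and myeloid lists stayed above the dim limit on Grem1+ arrays, while some genes of each list, such as Mmp8 and Csf1r, were dim on part of them. The median of the neutrophil granule genes stood at 5.87, 6.09 and 7.75 on the Grem1+ arrays, against 10.99, 11.19 and 10.82 on the Grem1- arrays. That of the myeloid surface and oxidase genes stood at 4.41, 5.06 and 5.87 on Grem1+ arrays, against 8.39, 8.92 and 8.63 on Grem1- arrays. Mouse 3 had the highest median of both lists in Grem1+ and also the highest Ikzf1 1436312_at and Gfi1 values there, although Gfi1 was dim on all Grem1+ arrays. It had the lowest value of Ikzf1 1421303_at (3.26, also dim) and not the highest value of Spi1, of Lmo2 or of any Myb probe set. For erythroid genes the Grem1+ arrays gave 3.78, 3.64 and 4.56 and the Grem1- arrays 9.04, 9.95 and 8.52. Of 10 endothelial genes, which could share Tal1, Lmo2 and Gata2, 4 could be tested, and 0 rose and 0 fell in limma. An unadjusted p under 0.05 was found for 2 of the 4 and for 3616 of all 10151 genes, and the median difference was -1.09. Their median level was 4.13, 3.97 and 3.61 on Grem1+ arrays beside 5.06, 5.50 and 4.81 on Grem1- arrays. The other 6 endothelial genes were dim on at least 4 arrays. What part blood or endothelial cells had in the members' values was not tested.

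**Figure D4:**
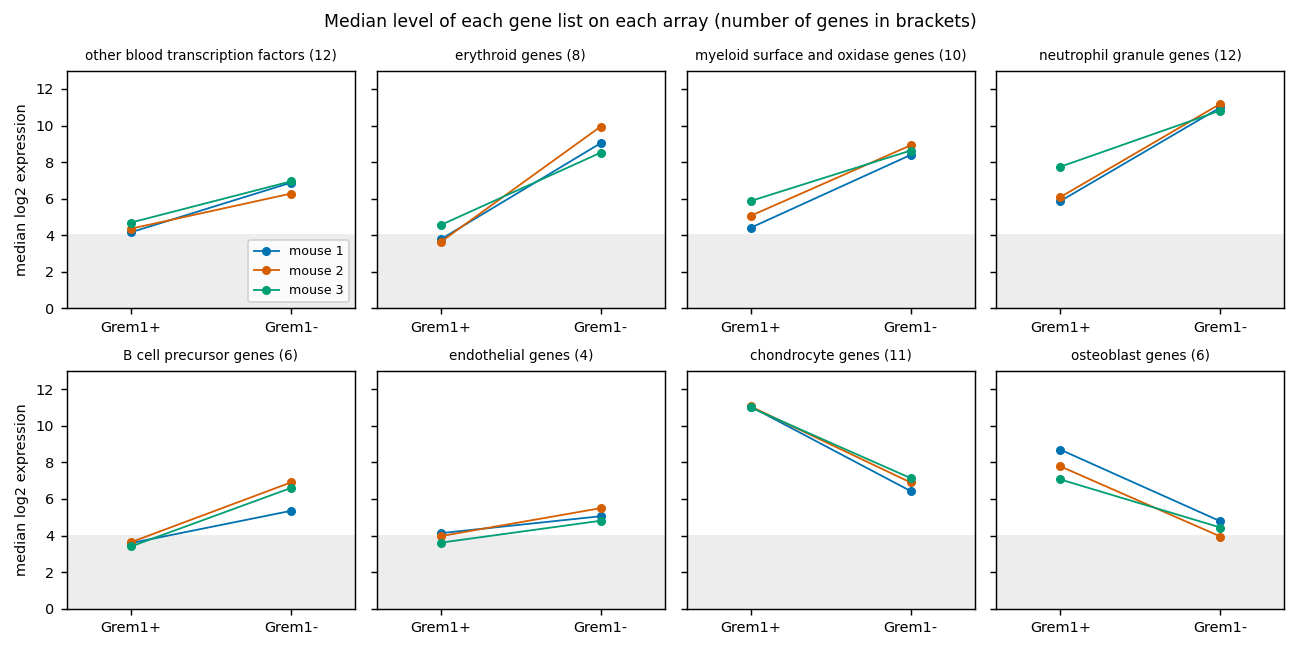
Median log2 level of 8 gene lists (panels) in Grem1+ and Grem1- (x axis), with a line for each mouse, grey shading below log2 4 and the number of genes in brackets. The blood lists are lower in Grem1+ in all 3 mice, with neutrophil granule medians of 5.87 to 7.75 there, and the chondrocyte and osteoblast lists are higher.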

How the data were processed

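RNA of 3 Grem1+ and 3 Grem1- sorted fractions was measured on Affymetrix arrays. Per the labels' protocols it was extracted with the RNAqueous-Micro kit and amplified by NuGEN's Ovation One-Direct method. The deposited values are log2 expression per probe set, and GCRMA, a background, normalization and summary method, is the tool in the submitters' processing notes, with no version. Their range (0.80 to 14.05) shows the log2 scale. Scanner files were not analysed here. Of 45101 probe sets 34945 had 1 gene symbol in the platform annotation, 932 had several, 9160 had none and 64 were controls.

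Probe sets with 1 symbol and a log2 value above 4 on at least 3 of the 6 arrays (18157, of 10151 genes) were fitted in limma 3.58.1 (R 4.3.3, lmFit and eBayes, two-sided, 2 residual and 2.28 prior degrees of freedom) with the mouse as a block, and p-values were adjusted by Benjamini-Hochberg over all of them. Intervals are 95% intervals from this fit. The pairing comes from the series design text, with the number in each title taken as the mouse. The deviations of the Grem1+ and Grem1- arrays of 1 mouse from their groups' means correlated at 0.01, 0.05 and 0.03 for mice 1, 2 and 3. A value below log2 4, a chosen limit and not a measured one, is called dim. Where all arrays of the lower group of a called probe set were dim, a bound is given with dim values set to 4. A gene list was read on the brightest probe set of each gene.

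The members and lists were chosen with earlier results of these data known. Named were all members, Grem1, Ptprc, Pecam1, Ly76 and Xist as checks, up to 4 called genes of a list with the largest difference or, where none was called, up to 2 of its brightest, and the 2 genes closest to each member. No probe set is named for Ly76, and Pecam1 differed by -1.50 (adjusted p = 0.0638). The number of arrays limits the precision.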

Additional observations from a re-analysis of the deposited data

How the results depend on the processing

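The 18 member probe sets kept their direction under the alternatives tried, except Runx1 1452530_a_at, whose difference lay near 0 and was not called. The limits are few arrays and dim values: when 1 mouse was dropped and pairing was retained, limma called 0 of 18157 probe sets in either direction, while 4967 to 5158 had an unadjusted p under 0.05. Those fits have fewer samples. Without the replicate block, leaving out a mouse gave 1114, 1176 and 1122 higher and 761, 751 and 796 lower probe sets (mice 1, 2 and 3), and 5 to 7 lower and 0 higher member probe sets. Without the replicate block and with all mice, 2 member probe sets were higher and 9 lower, beside 2329 and 1876 of all 18157. Without the filter on dim probe sets, 1095 probe sets were higher and 666 lower, over 34945 tested. With 1 probe set a gene, 1191 were higher and 864 lower, since fewer were tested. Without probe sets that may read several transcripts (identifiers with _s, _x or _a), 5 member probe sets of 10 tested were lower. Those of Myb, Lmo2 and Gata2 and some of Runx1 are left out by construction, and Ikzf1 1421303_at passed (limma adjusted p = 0.0498). Of the member calls, Gata1 and Lmo2 were lost without the filter, and Gata1 with values below log2 4 set to 4. A stricter filter (above log2 6 on at least 3 arrays) left 8 of the 18 member probe sets to test. Of these 6 were lower and 0 higher, where 1311 of all 9666 were lower and 1645 higher, and Spi1 and Gata1 were too dim to be tested. The block, the filter and the scaling changed no other member call beyond those given here and beside each result. Quantile normalization, median centring and cyclic loess each gave 8 lower and 0 higher.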

Other observations

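Lists of stem and progenitor, megakaryocyte and mast cell genes gave values that belong to no comparison above. Over all genes tested 11.1% rose and 7.81% fell. Of 8 stem and progenitor genes 4 could be tested, and 2 rose and 1 fell, with a median difference of 0.92 beside 0.04 over all genes tested. Myc rose by 3.15 (SE 0.57, limma adjusted p = 0.0333) and Procr, the endothelial protein C receptor, by 2.80 (SE 0.50, limma adjusted p = 0.0330), and both lost their calls without the filter on dim probe sets (adjusted p = 0.0840 and 0.0787). Kit, a receptor that GATA2 and MYB regulate, was dim on all Grem1+ arrays and at least 1.87-fold lower (limma adjusted p = 0.0316), and lost its call with values below log2 4 set to 4 (adjusted p = 0.237). Of 10 megakaryocyte genes 3 could be tested, with a median difference of -1.62, and Pf4, platelet factor 4, differed by -2.96 (SE 0.50, limma adjusted p = 0.0288) and Itgb3 by -1.62 (SE 0.30, limma adjusted p = 0.0340), so both fell. The third, Gp1bb, differed by 0.34 and did not pass (limma adjusted p = 0.474), and it is named outside the rule. With a mouse left out and no block, Itgb3 and Myc lost their calls each time, Procr without mouse 2 or 3, Kit without mouse 1, and Pf4 without mouse 1 or 2 (adjusted p of these from 0.0575 to 0.186). Without the filter on dim probe sets Pf4 and Kit were lost too (adjusted p = 0.0694 and 0.0716). Of 10 mast cell and basophil genes 4 could be tested, with a median difference of -2.72, and Mcpt8, a basophil protease, fell by 2.84 (SE 0.29, limma adjusted p = 0.0129), as did Kit.

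Cartilage and bone lists moved the other way. All 11 chondrocyte genes rose, with a median difference of 4.58, and 5 of 6 osteoblast genes rose, with a median of 3.29, where 11.1% of all genes tested rose. Epyc and Cytl1 rose by 7.06 (SE 0.40) and 6.87 (SE 0.34), with limma adjusted p = 0.00989 for both. Pth1r, the parathyroid hormone receptor, rose by 5.14 (SE 0.47, limma adjusted p = 0.0114) and Dlx5, a homeobox factor of bone, by 3.76 (SE 0.41, limma adjusted p = 0.0140). Without the block, Dlx5 lost its call when mouse 2 (adjusted p = 0.0597) or mouse 3 (adjusted p = 0.0664) was left out.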
